A study of Mus musculus with 8 samples.

Results

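The 8 genes described here were listed together as primary granule genes of myeloid cells. They were the rows of the deposited count table whose symbol was *Mpo*, *Elane*, *Prtn3*, *Ctsg*, *Prss57*, *Ctsc*, *Ms4a3* or *Serpinb1a*, 8 of 54188 genes. Not all encode granule contents: *Serpinb1a* encodes a cytosolic inhibitor of the granule proteases and *Ms4a3* a membrane protein. Primary, or azurophil, granules are the first granules that a developing granulocyte makes. Their genes are transcribed mainly in granulocyte-monocyte progenitors and promyelocytes, early monocyte precursors transcribe several of them, and the mRNAs are lost as cells mature while the proteins stay stored. Secondary granules, with proteins such as lactoferrin, are made at a later stage.

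RNA was sequenced from CD11b+Gr-1hi and CD11b+Gr-1lo cells that were sorted from spleen (SP) or bone marrow (BM) of sanroque mice, a lupus-prone strain on the C57BL/6 background. Every mouse was homozygous for the *san* allele of *Roquin*, which all 4 groups carried, and the labels give an age of 20 weeks with no treatment. SP Gr-1hi cells gave libraries 5 and 6, SP Gr-1lo cells libraries 7 and 8, BM Gr-1hi cells libraries 9 and 10, and BM Gr-1lo cells libraries 11 and 12. The labels call the Gr-1hi cells G-MDSC and the Gr-1lo cells M-MDSC, the granulocytic and monocytic kinds of myeloid-derived suppressor cell. No library of a mouse without the san allele was analysed here, the labels do not tie libraries to mice, and p-values therefore measure the spread between these libraries. A sort on Gr-1 takes cells of several stages, so fewer cells of a type and less RNA per cell cannot be told apart in any result below.

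Between 33453580 and 68316154 reads were counted per library. Levels are given as CPM, counts scaled to the same effective library total. Where a gene had a count of 0, its true count could still be as high as 3, or 0.0348 to 0.124 CPM by library, counting error alone considered. The neutrophil marker *Ly6g* was at 330 to 801 CPM in Gr-1hi and 3.07 to 8.23 CPM in Gr-1lo libraries, and *Itgam*, which encodes CD11b, was at 734 CPM or more in all 8. *Rc3h1*, which encodes Roquin, was at 52.3 to 125 CPM. The label Female did not match every library. *Xist* was abundant only in SP libraries, so sex and tissue cannot be fully told apart in SP against BM. *Xist*, the RNA of the inactive X chromosome, was counted 12032 times in library 5 and 9898 times in library 7 but no more than 5 times in any other, while the Y-linked *Ddx3y* had 0 counts in library 5 and 33.7 to 82.6 CPM in the other 7, library 7 included. Calls and fold changes of the members that rest on libraries 5 and 7 are therefore given with and without them, and for the other genes named, the calls between tissues that were lost without them are stated.

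The sequences upstream of the 4 members that encode the peroxidase and the classical serine proteases of the granule are shown because these 4 mRNAs had the largest steps between Gr-1lo and Gr-1hi cells in both tissues. They are the bases before the RefSeq start of each gene on GRCm38.p6, 5′ to 3′ on the gene's strand, without bases that GENCODE M21 places in a UTR. The RefSeq start of *Prtn3* lies inside its GENCODE span, 79874476 to 79883174, so its sequence is upstream of the RefSeq start only. Capitals mark matches, on either strand, to GAGGAA (bound by the ETS factor PU.1), AACTG (bound by MYB) or TGTGGT (bound by RUNX factors), and no capitals of different motifs overlap.
*Mpo*, chr11:87793534-87793580, plus strand: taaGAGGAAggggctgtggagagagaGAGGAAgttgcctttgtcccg
*Elane*, chr10:79886062-79886246, plus strand: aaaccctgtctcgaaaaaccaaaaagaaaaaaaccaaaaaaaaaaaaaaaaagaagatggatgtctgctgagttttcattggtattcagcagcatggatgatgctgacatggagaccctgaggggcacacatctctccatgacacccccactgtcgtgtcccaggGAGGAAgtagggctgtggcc
*Prtn3*, chr10:79879417-79879613, plus strand: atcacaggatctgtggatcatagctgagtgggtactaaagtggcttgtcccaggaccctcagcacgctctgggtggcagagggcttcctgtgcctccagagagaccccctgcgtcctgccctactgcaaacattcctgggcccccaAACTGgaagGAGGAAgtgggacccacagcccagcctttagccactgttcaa
*Ctsg*, chr14:56102575-56102824, minus strand: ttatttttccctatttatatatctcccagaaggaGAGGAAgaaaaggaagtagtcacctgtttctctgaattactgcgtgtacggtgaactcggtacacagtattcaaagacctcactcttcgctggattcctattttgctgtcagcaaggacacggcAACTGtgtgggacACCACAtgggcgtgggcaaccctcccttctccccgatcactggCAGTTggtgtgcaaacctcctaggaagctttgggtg

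RefSeq promoters were found for 6 of the 8 members, all but *Prss57* and *Serpinb1a*. In the 250 bases before the start, GAGGAA occurred in 5 of these 6 members (*Mpo*, *Elane*, *Prtn3*, *Ctsg* and *Ctsc*) and in 23.3% of 32851 mouse promoters. AACTG occurred in 3 of 6 members (*Mpo*, *Prtn3* and *Ctsg*) against 39.1% of all promoters. The match in *Mpo*, 165 bases before the start, lies in the UTR bases that the sequence above leaves out. TGTGGT occurred in 1 of 6 (*Ctsg*) against 14.0%, and TTNNGNAA, a C/EBP consensus, in 1 of 6 (*Ms4a3*) against 36.8%. These matches are descriptions of letters, not of bound sites.

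**Figure D1:**
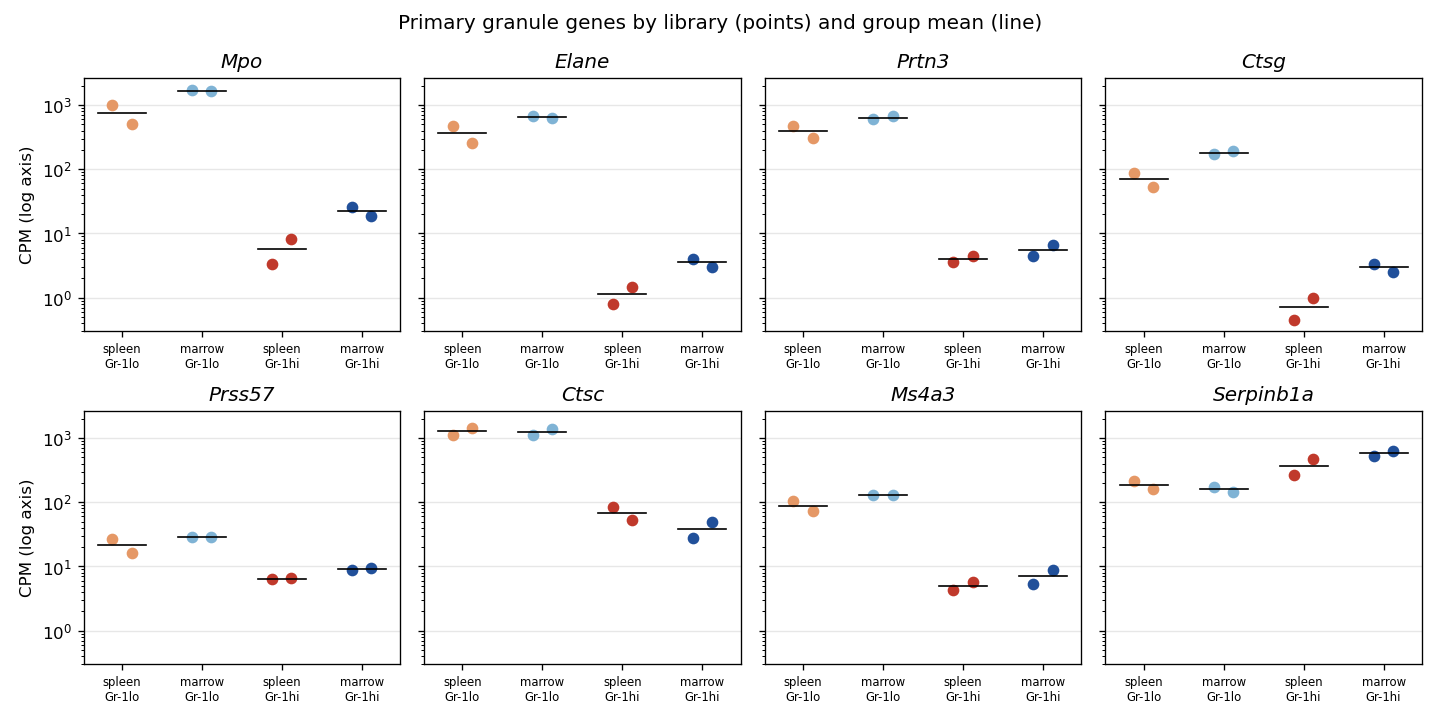
Normalised level of each member (CPM, log axis) in each library, as points, with the mean of the 2 libraries of a group as a line. *Mpo*, *Elane*, *Prtn3*, *Ctsg*, *Ctsc* and *Ms4a3* lie lower in every Gr-1hi library than in any Gr-1lo library, *Prss57* by a smaller margin, and *Serpinb1a* lies higher.

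The first question was how the granule mRNAs differ between the granulocytic and the monocytic subset of a tissue. All 8 members passed the filter on low counts. In BM, 6 of the 8, namely *Mpo*, *Elane*, *Prtn3*, *Ctsg*, *Ctsc* and *Ms4a3*, were lower in Gr-1hi than in Gr-1lo libraries at an adjusted p below 0.01 and a fold above 8, where 10.1% of the 17650 genes tested were called lower and 6.56% higher. In SP the same 6 were called lower, against 2.93% of genes lower and 4.44% higher. No member was called higher in either tissue by edgeR's quasi-likelihood test or by DESeq2, although *Serpinb1a* was higher at an unadjusted p of at most 0.05 in both. In either direction, 13663 of the 17650 genes tested reached that p in BM and 13016 in SP. The median log2 fold change of the 8 members was -5.46 in BM and -5.42 in SP, against -0.17 and -0.09 over all genes tested. The 8 genes together took 0.352% to 0.603% of the counts of a Gr-1lo library and 0.0320% to 0.0519% of those of a Gr-1hi library.

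*Mpo* encodes myeloperoxidase, the heme enzyme of the granule that makes hypochlorous acid from hydrogen peroxide. The gene (ENSMUSG00000009350) lies on chromosome 11 from 87793581 to 87804413 on the plus strand of GRCm38. Its level was 1714 and 1624 CPM in the BM Gr-1lo libraries and 26.0 and 18.9 CPM in the BM Gr-1hi libraries. In SP it was 1012 and 509 CPM in Gr-1lo and 3.35 and 8.13 CPM in Gr-1hi libraries. The groups did not overlap in either tissue, and the Gr-1hi mean was 1.34% of the Gr-1lo mean in BM and 0.755% in SP. The log2 fold change was -6.22 ± 0.54 (SE, adjusted p = 5.17e-05, edgeR, n = 2 libraries per group) in BM and -7.05 ± 0.57 (adjusted p = 4.75e-05) in SP.

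The serine proteases *Elane*, *Prtn3* and *Ctsg* (neutrophil elastase, proteinase 3 and cathepsin G) are stored in active form and degrade microbial and matrix proteins. *Elane* (ENSMUSG00000020125, chromosome 10 from 79886247 to 79888215, plus strand) differed most between the subsets. It was at 683 and 634 CPM in BM Gr-1lo and at 4.07 and 3.01 CPM in BM Gr-1hi libraries, and at 465 and 258 CPM in SP Gr-1lo and 0.814 and 1.47 CPM in SP Gr-1hi libraries. No Gr-1hi library came near a Gr-1lo library: the log2 fold change was -7.53 ± 0.39 in BM (adjusted p = 1.45e-06) and -8.31 ± 0.42 in SP (adjusted p = 2.55e-06), or 185-fold and 318-fold. The lowest of these values rests on 27 counts in library 5 and 46 in library 6.

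*Prtn3* (ENSMUSG00000057729, chromosome 10 from 79874476 to 79883174, plus strand) ends 3073 bases before *Elane* begins. Its level was 595 and 672 CPM in BM Gr-1lo, 4.49 and 6.61 CPM in BM Gr-1hi, 477 and 307 CPM in SP Gr-1lo and 3.59 and 4.43 CPM in SP Gr-1hi libraries. The difference between subsets, a log2 fold change of -6.84 ± 0.29 in BM (adjusted p = 3.46e-07) and -6.61 ± 0.29 in SP (adjusted p = 8.90e-07), was of like size in the tissues.

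*Ctsg* (ENSMUSG00000040314, chromosome 14 from 56099881 to 56102574, minus strand) was the least abundant of the 3. It was at 170 and 192 CPM in BM Gr-1lo, 3.40 and 2.56 CPM in BM Gr-1hi, 87.8 and 52.7 CPM in SP Gr-1lo and 0.452 and 0.989 CPM in SP Gr-1hi libraries. The 4 groups had no overlapping libraries. The log2 fold change between subsets was -5.92 ± 0.34 in BM (adjusted p = 1.81e-06) and -6.61 ± 0.38 in SP (adjusted p = 3.42e-06).

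*Prss57*, a granule serine protease that cleaves after arginine, differed by a smaller step. The gene (ENSMUSG00000020323, chromosome 10 from 79781474 to 79790961, minus strand) was at 28.9 and 28.3 CPM in BM Gr-1lo and 8.86 and 9.41 CPM in BM Gr-1hi libraries, and at 26.4 and 16.3 CPM in SP Gr-1lo and 6.39 and 6.57 CPM in SP Gr-1hi libraries. The groups did not overlap and the adjusted p was below 0.01 (1.03e-04 in BM, 1.06e-04 in SP), but the fold of 3.13 in BM and 3.28 in SP was under 8. In both tissues the Gr-1hi mean was close to a constant share of the Gr-1lo mean, 32.0% in BM and 30.3% in SP.

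*Ctsc* encodes cathepsin C, which removes a dipeptide from the granule serine proteases and so activates them. The gene (ENSMUSG00000030560, chromosome 7 from 88278085 to 88310888, plus strand) was at 1117 and 1374 CPM in BM Gr-1lo and 1128 and 1416 CPM in SP Gr-1lo libraries, ranges that overlap. It was at 27.4 and 50.0 CPM in BM Gr-1hi and 83.8 and 52.3 CPM in SP Gr-1hi libraries. The log2 fold change between subsets was -5.01 ± 0.38 in BM (adjusted p = 1.44e-05) and -4.22 ± 0.36 in SP (adjusted p = 4.01e-05).

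*Ms4a3* encodes a membrane protein of the MS4A family that marks granulocyte-monocyte progenitors and their progeny. The gene (ENSMUSG00000024681, chromosome 19 from 11629496 to 11640851, minus strand) was at 127 and 131 CPM in BM Gr-1lo and 105 and 72.3 CPM in SP Gr-1lo libraries, against 5.31 and 8.67 CPM in BM Gr-1hi and 4.25 and 5.68 CPM in SP Gr-1hi libraries. The Gr-1hi mean was 5.40% of the Gr-1lo mean in BM and 5.59% in SP. The log2 fold changes were -4.21 ± 0.28 (adjusted p = 2.52e-06) and -4.16 ± 0.28 (adjusted p = 4.87e-06).

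*Serpinb1a* encodes a cytosolic serpin that inhibits elastase, proteinase 3 and cathepsin G, and its direction was opposite to that of its targets. The gene (ENSMUSG00000044734, chromosome 13 from 32842092 to 32851185, minus strand) was at 531 and 618 CPM in BM Gr-1hi and 171 and 145 CPM in BM Gr-1lo libraries, and at 268 and 472 CPM in SP Gr-1hi and 214 and 158 CPM in SP Gr-1lo libraries. Gr-1hi libraries were higher without overlap, by a log2 fold change of 1.86 ± 0.27 in BM (adjusted p = 3.74e-04) and 0.99 ± 0.26 in SP (adjusted p = 0.0105), which is under the 8-fold threshold in BM and past neither threshold in SP.

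The size of the step in SP moved with the libraries used. With libraries 5 and 7 left out, so that SP had 1 library per subset whose spread was taken to be that of BM, the same 6 members were called and the log2 fold change was -7.48 for *Elane* (179-fold), -5.99 for *Mpo* (63.6-fold in place of 133-fold), -6.14 for *Prtn3*, -5.75 for *Ctsg* (54.0-fold in place of 97.8-fold), -4.78 for *Ctsc*, -3.69 for *Ms4a3*, -1.33 for *Prss57* and 1.56 for *Serpinb1a*. *Serpinb1a* then passed an adjusted p below 0.01 (1.13e-04), still under 8-fold. Without library 6 alone the value was -7.85 for *Mpo* and -7.29 for *Ctsg*, and no other single library moved the fold of a member between subsets by more than 1.5 times.

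**Figure D2:**
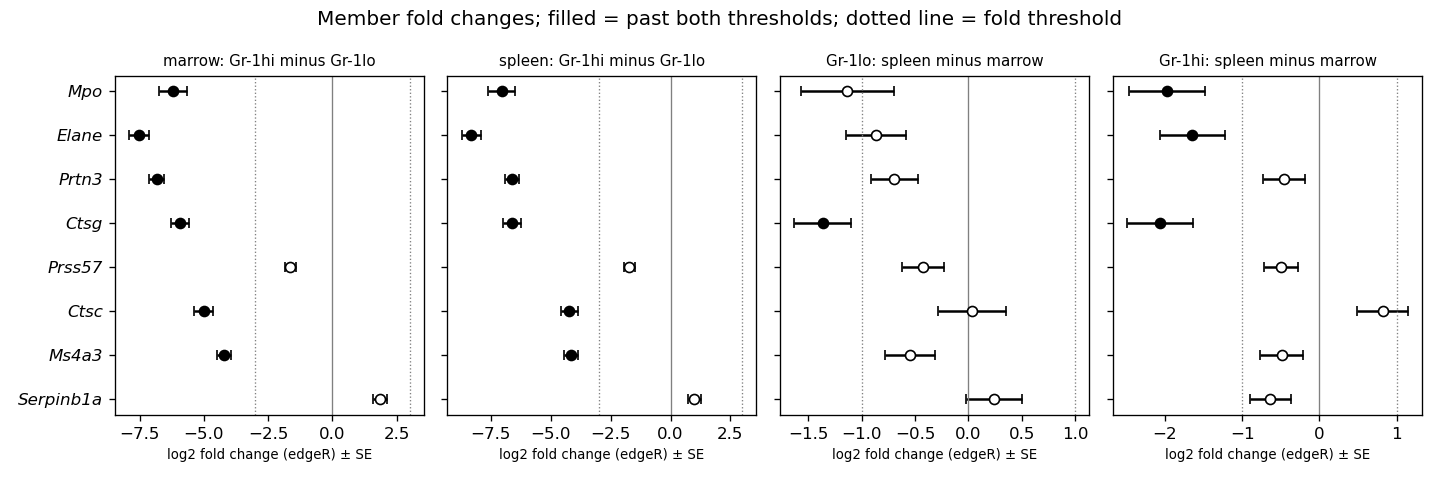
Log2 fold change of each member with its SE, from edgeR's quasi-likelihood fit of all 8 libraries, for Gr-1hi minus Gr-1lo in BM and in SP and for SP minus BM in each subset; filled points pass both thresholds and dotted lines mark the fold threshold, 8 between subsets and 2 between tissues. The 6 filled points between subsets lie from -4.16 to -8.31, and *Ctsc* is the member with the highest value in SP minus BM of Gr-1hi cells, at 0.82.

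Levels of different genes were compared in TPM, which divides counts by exon length and scales each library to the same sum. In BM Gr-1lo cells the order was *Elane* (2062 ± 134 TPM, mean ± SD, n = 2), *Mpo* (1501 ± 77.2), *Prtn3* (1126 ± 81.0), *Ctsc* (660 ± 87.7), *Ctsg* (538 ± 39.7), *Ms4a3* (211 ± 1.93), *Serpinb1a* (211 ± 28.0) and *Prss57* (31.0 ± 0.885). Only *Ms4a3* and *Serpinb1a*, neighbours in that order, overlapped between libraries. *Elane* was at rank 44, *Mpo* at rank 71 and *Prtn3* at rank 102 of the 53947 genes with a length. In SP Gr-1lo cells *Elane* again led with 1092 ± 470 TPM, followed by *Prtn3* (671 ± 223), *Mpo* (660 ± 326) and *Ctsc* (645 ± 84.6), and *Elane*, *Prtn3* and *Mpo* each overlapped with the next gene in the order, while *Ctsc* did not overlap with *Serpinb1a*, the fifth. In Gr-1hi cells the inhibitor *Serpinb1a* stood first in both tissues, at 417 ± 29.5 TPM in BM and 320 ± 108 in SP, while no other member exceeded a mean of 23.8 TPM.

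The inhibitor and its 3 targets were also set against each other within each library, as TPM. *Serpinb1a* was at 5.15% and 6.19% of the sum of *Elane*, *Prtn3* and *Ctsg* in the BM Gr-1lo libraries and at 11.2% and 14.0% in the SP Gr-1lo libraries. In the Gr-1hi libraries it exceeded that sum, with 2302% and 2870% in BM and 3491% and 4095% in SP. Transcript ratios are not protein ratios, since granule proteins outlast their mRNAs.

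Markers of monocytes, the other cell type that a Gr-1 sort separates, moved with these results. The 8 monocyte genes listed (none at 0 in any library) summed to 7567 to 11021 CPM in Gr-1lo and 1018 to 1764 CPM in Gr-1hi libraries, and 7 neutrophil genes to 2905 to 6477 and 62037 to 105662 CPM. Of these 8, *Fn1*, *F13a1*, *Vcan* and *Ccr2*, named after their values were seen, were far lower in every Gr-1hi than in any Gr-1lo library. They were above the floor in each. *Ly6c2*, the highest of the 8 in every Gr-1hi library, differed less. It was at 585 to 1516 CPM in Gr-1hi and 1196 to 2193 CPM in Gr-1lo libraries, ranges that overlap. *Fn1*, the fibronectin gene, was at 1.12 CPM in library 9 and at 31.2 CPM in library 10, both of BM Gr-1hi cells, against 2474 and 3656 CPM in BM Gr-1lo libraries. *F13a1* was at 1.83 and 17.4 CPM, *Vcan* at 0.374 and 8.71 CPM and *Ccr2*, the chemokine receptor gene of monocytes, at 6.73 and 38.6 CPM in the same 2 libraries. *Mpo*, *Elane* and *Ctsg* were lower in library 10 than in library 9, while *Ctsc*, *Prtn3*, *Ms4a3*, *Prss57* and *Serpinb1a* were higher. In library 9, *Fn1* stood at 0.0366%, *Ccr2* at 0.382% and *Mpo* at 1.56% of the BM Gr-1lo mean, and in library 10 they stood at 1.02%, 2.19% and 1.13%. In the SP Gr-1hi libraries *Fn1* stood at 0.0892% and 0.103% of the SP Gr-1lo mean, *Ccr2* at 1.23% and 0.972% and *Mpo* at 0.440% and 1.07%. *Ccr2* thus stood above *Mpo* in library 10 and in library 5, and below it in libraries 9 and 6. The part of monocyte RNA in the member values was not tested.

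**Figure D3:**
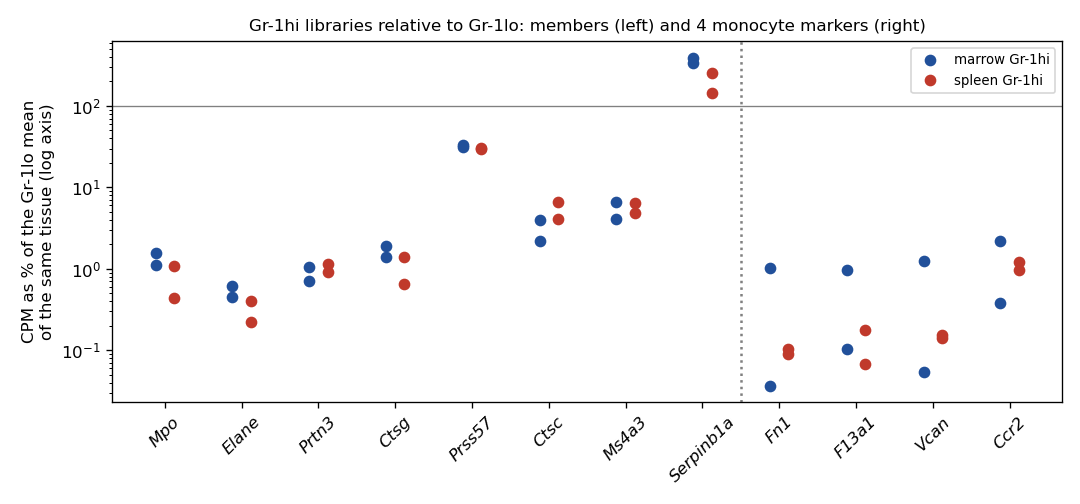
Level of each member and of 4 monocyte markers in each Gr-1hi library, as a percent of the mean Gr-1lo CPM of the same tissue (log axis, 1 point per library). Most members lie between 0.2% and 7% of the Gr-1lo level, *Prss57* near 30%, *Serpinb1a* above 100%, and *Fn1* reaches 1.02% in only 1 of the 4 libraries.

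Progenitor and other lineage markers were low in absolute terms. The 7 progenitor genes summed to 21.5 to 70.2 CPM in all libraries, led by *Kit*, and 9 mast cell and basophil genes to 4.26 to 46.0 CPM, led by *Prss34* and *Mcpt8*. Within each tissue both sums were higher in Gr-1hi than in Gr-1lo libraries. Gene by gene the progenitor list was mixed. Its median log2 fold change between subsets was -1.11 in BM, where 0 genes were higher and 3 lower at an adjusted p below 0.01. The median was 0.03 in SP, where 1 was higher and 2 were lower. Of all genes tested, 29.8% were higher and 35.4% lower at that adjusted p in BM, and 27.8% and 31.9% in SP. Spleen libraries held more RNA of other lineages: 8 B cell genes summed to 335 and 494 CPM in SP Gr-1hi, 61.9 and 78.1 in SP Gr-1lo and 7.95 to 18.5 in BM libraries. For 6 T cell genes the sums were 16.8 to 87.5 CPM in SP and 1.17 to 9.05 in BM, for 7 erythroid genes 167 to 734 and 7.70 to 44.1, for 5 plasma cell genes 270 to 368 and 98.5 to 244, and for 6 dendritic cell genes 14.8 to 26.1 and 2.92 to 7.66. The 4 platelet genes gave 24.5 to 68.7 CPM in Gr-1hi and 5.88 to 11.3 in Gr-1lo libraries. The part of these cells in the member values was not tested.

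The second question was whether the spleen cells differed from the marrow cells of the same phenotype. Among Gr-1lo cells, 1 member, *Ctsg*, was called lower in SP (thresholds here were an adjusted p no higher than 0.05 and a change of 2-fold or more), where 0.215% of genes were called lower and 3.84% higher. *Ctsg* was at 70.3 ± 24.8 CPM in SP and 181 ± 15.7 CPM in BM (SD, n = 2), a log2 fold change of -1.36 ± 0.27 (adjusted p = 0.0259). No member was called higher by edgeR or DESeq2, and none was higher at an unadjusted p of at most 0.05, while 5 were lower at that level. Of the 17650 genes tested, 3545 reached it in either direction. For 6 of the 8 members both SP libraries were lower than both BM libraries, an arrangement that 32.5% of all genes tested showed (27.1% showed the opposite one). The median over the members was -0.62 on the log2 scale, against -0.01 over all genes tested.

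The other members did not pass in Gr-1lo cells. The log2 fold change was -1.13 ± 0.44 for *Mpo* (adjusted p = 0.219), -0.86 ± 0.28 for *Elane* (adjusted p = 0.151), -0.69 ± 0.22 for *Prtn3* (adjusted p = 0.136), -0.54 ± 0.23 for *Ms4a3* (adjusted p = 0.246) and -0.43 ± 0.20 for *Prss57* (adjusted p = 0.274). It was 0.03 ± 0.32 for *Ctsc* (adjusted p = 0.973) and 0.24 ± 0.26 for *Serpinb1a* (adjusted p = 0.667), and the libraries of these 2 genes overlapped. Library 7 gave the higher SP value for *Mpo*, *Elane*, *Prtn3*, *Ctsg*, *Prss57* and *Ms4a3*, and library 8 for *Ctsc*. Of the 7 progenitor genes 1, *Cd34*, was also called lower in SP Gr-1lo cells, and of the 6 mast cell and basophil genes tested 1, *Mcpt8*. Of all genes tested, 0.215% were called lower there. The part of these cells in the member values was not tested. Without library 7 the log2 fold change was -1.71 for *Mpo*, -1.34 for *Elane*, -1.04 for *Prtn3* and -1.77 for *Ctsg*. Without both libraries 5 and 7 it was -1.72 for *Mpo*, -1.36 for *Elane*, -1.05 for *Prtn3* and -1.79 for *Ctsg*. Both fits leave 1 SP Gr-1lo library, so they hold no spread between SP Gr-1lo libraries. The call of *Ctsg* was lost without library 8 (adjusted p = 0.120), 11 (0.0993) or 12 (0.169), and in a fit of the 4 Gr-1lo libraries alone (0.0637).

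Among Gr-1hi cells, *Mpo*, *Elane* and *Ctsg*, 3 of the 8 members, were called lower in SP, where 1.48% of genes were called lower and 14.0% higher. *Mpo* was at 5.74 ± 3.39 CPM in SP and 22.4 ± 5.06 CPM in BM, a log2 fold change of -1.97 ± 0.49 (adjusted p = 0.0232). For *Elane* the means were 1.14 ± 0.462 and 3.54 ± 0.750 CPM and the log2 fold change -1.65 ± 0.42 (adjusted p = 0.0214). For *Ctsg* they were 0.720 ± 0.380 and 2.98 ± 0.596 CPM and -2.06 ± 0.43 (adjusted p = 0.00937). These are low levels in absolute terms: *Ctsg* had 15 and 31 counts in the SP libraries and 91 and 62 in the BM libraries.

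The remaining members did not pass in Gr-1hi cells. *Prtn3* had a log2 fold change of -0.46 ± 0.27 (adjusted p = 0.221), *Ms4a3* -0.49 ± 0.28 (adjusted p = 0.205), *Prss57* -0.50 ± 0.22 (adjusted p = 0.114) and *Serpinb1a* -0.63 ± 0.26 (adjusted p = 0.101). *Ctsc*, in contrast to the proteases it activates, had 68.0 ± 22.3 CPM in SP and 38.7 ± 16.0 CPM in BM, a log2 fold change of 0.82 ± 0.33 (adjusted p = 0.0973). No member was called higher by edgeR or DESeq2, and *Ctsc* was the 1 member higher at an unadjusted p of at most 0.05. At that level 4 members were lower, and 8015 of the 17650 genes tested passed in either direction. In 6 members both SP libraries were lower than both BM libraries, against 31.9% of all genes (35.9% showed the opposite arrangement). The 3 calls were lost without library 5 (adjusted p = 0.121 for *Mpo*, 0.181 for *Elane* and 0.0948 for *Ctsg*), and without library 9 only *Ctsg* was called. *Mpo* was also lost without library 11 (adjusted p = 0.0544) or 12 (0.0542) and *Elane* without library 6 (0.0539), while *Serpinb1a* was called lower without library 6 (-1.18, adjusted p = 0.00434) and *Ctsc* higher without library 10 (1.22, adjusted p = 0.0277). With neither library 5 nor 7 the log2 fold change was -1.45 for *Mpo*, -1.26 for *Elane* and -1.58 for *Ctsg*. That fit leaves 1 SP Gr-1hi library, whose spread was taken to be that of BM. Without library 6 the values were -2.83 for *Mpo* and -2.80 for *Ctsg*, a fold over 1.5 times that with all libraries. Other markers moved with these calls. Of the 7 progenitor genes 3 were called lower and 1 higher in SP Gr-1hi cells (median -0.85), and of the 6 mast cell and basophil genes tested 4 were called lower (median -1.20). Of all genes tested, 1.48% were called lower and 14.0% higher in this comparison. Several of these marker calls were lost without libraries 5 and 7. The part of these cells in the member values was not tested.

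No member passed for the interaction, the difference between Gr-1hi and Gr-1lo cells in SP minus that in BM, by edgeR or DESeq2. At an unadjusted p of at most 0.05 stood 1 member, *Serpinb1a*, and 5703 of the 17650 genes tested. Of all genes, 7.74% were called higher and 2.00% lower in this test. The largest member values were -0.87 ± 0.37 for *Serpinb1a* (adjusted p = 0.153), -0.84 ± 0.64 for *Mpo* (adjusted p = 0.422), 0.79 ± 0.46 for *Ctsc* (adjusted p = 0.287) and -0.78 ± 0.51 for *Elane* (adjusted p = 0.336). *Serpinb1a* was called without library 6 (-1.43, adjusted p = 0.00802). The calls of *Mpo* and *Elane* in Gr-1hi but not in Gr-1lo cells do not by themselves show that the tissue difference depended on the subset.

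In the 4 Gr-1lo libraries the serine proteases were also taken relative to *Mpo* within a library. *Elane*, *Prtn3* and *Prss57* were at a higher percent of *Mpo* in SP than in BM without overlap, while *Ctsg* overlapped. *Elane* was at 39.8% and 39.1% of the CPM of *Mpo* in BM and 46.0% and 50.8% in SP. *Prtn3* was at 34.7% and 41.4% in BM and 47.1% and 60.4% in SP. *Prss57* was at 1.69% and 1.74% in BM and 2.61% and 3.20% in SP. *Ctsg* was at 9.89% and 11.8% in BM and 8.68% and 10.3% in SP. *Ctsc* was at 65.2% and 84.6% of *Mpo* in BM but 111% and 278% in SP, where both libraries had less *Mpo* than in BM and *Ctsc* overlapped. Over all 8 libraries, which are 4 groups of 2, the Pearson r of log2 CPM with *Mpo* was 0.999 for *Ctsg*, 0.996 for *Elane*, 0.979 for *Prtn3*, 0.907 for *Ctsc* and -0.774 for *Serpinb1a*. These r mostly reflect the step between subsets, a description over points that share group and depth.

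Among 8589 other genes with a mean of at least 10 CPM, the 5 most like the mean standardised log2 CPM of *Mpo*, *Elane*, *Prtn3* and *Ctsg* were *Thoc5*, *Ocrl*, *Dele1*, *Slbp* and *Atpif1*, each with a Pearson r of 0.998 over the 8 libraries. Their own step was far smaller. *Slbp*, which encodes the histone stem-loop binding protein, was at 85.8 CPM in BM Gr-1lo and 42.0 CPM in BM Gr-1hi cells, and *Ocrl*, a lipid phosphatase gene, at 34.4 and 12.0 CPM.

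The genes beside the proteases were read next, because *Prtn3* and *Elane* adjoin on chromosome 10 and *Ctsg* lies in a cluster of mast cell and lymphocyte proteases on chromosome 14. *Plppr3* overlaps the GENCODE span of *Prtn3* on the opposite strand, from 79874476 to 79874634, before the RefSeq start of *Prtn3*. It was called lower in Gr-1hi cells with *Prtn3* (57.0 against 1.99 CPM in BM, log2 fold change -4.84, adjusted p = 3.40e-07). In SP the log2 fold change was -4.53 (adjusted p = 1.12e-06). The library kit marks strand, but the strand setting of the counting is known only from the name of the table, so whether *Plppr3* and *Prtn3* share reads was not tested; *Mpo*, *Prss57* and *Ctsc* also have a gene on the opposite strand. On the other side of *Elane*, *Cfd* was at 0.139 CPM or less in every group mean, *Med16* did not pass between subsets in BM (-0.16, adjusted p = 0.282), and *R3hdm4* went the other way (3.83 in BM, adjusted p = 4.67e-08). Beyond *Plppr3*, *Ptbp1* was lower in Gr-1hi cells by -2.40 in BM (adjusted p = 2.59e-07), under the 8-fold threshold. Beside *Ctsg*, *Mcpt2*, *Mcpt4*, *Gzme*, *Gzmd* and *Gzmg* were at 0.0957 CPM or less in every group mean, and *Mcpt8*, a basophil protease, was at 1.41 to 9.92 CPM and higher in Gr-1hi cells (1.63 in BM, adjusted p = 5.49e-04). Between tissues *Mcpt8* was called lower in SP with *Ctsg*, by -1.21 in Gr-1lo (adjusted p = 0.0461) and -1.09 in Gr-1hi cells (adjusted p = 0.0155).

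Other proteins of the primary granule and its cargo did not share the step. Of 16 listed genes for lysozyme, serglycin, lysosomal hydrolases and the membrane protein CD63, 15 were tested and 0 were called between subsets in BM or SP by edgeR, although 6 were lower and 5 higher at an adjusted p below 0.01 in BM, and 7 and 5 in SP. Of all genes tested, 35.4% were lower and 29.8% higher at that adjusted p, whatever the fold, in BM, and 31.9% and 27.8% in SP. The median log2 fold change was -0.15 in BM and -0.55 in SP. *Lyz2*, the lysozyme of myeloid cells, was at 8431 CPM in BM Gr-1lo and 11003 CPM in BM Gr-1hi cells (0.38 ± 0.25, adjusted p = 0.185). *Srgn* encodes serglycin, the proteoglycan that holds the proteases in the granule, and it was higher in BM Gr-1hi cells (871 against 256 CPM, log2 fold change 1.77 ± 0.12, adjusted p = 2.03e-06), short of 8-fold. Between tissues, *Cd63* was called lower in SP Gr-1hi cells (74.4 ± 19.5 against 155 ± 4.23 CPM, -1.06 ± 0.19, adjusted p = 0.00431) and *Gaa*, which encodes the acid alpha-glucosidase, was called higher there (10.1 ± 1.37 against 4.09 ± 0.287 CPM, 1.31 ± 0.14, adjusted p = 4.15e-04). Without libraries 5 and 7, *Gaa* was called and *Cd63* was not (-0.79). In Gr-1lo cells 0 of the 15 were called.

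Of 16 listed protease inhibitor genes, 8 were tested. In BM, *Slpi*, which encodes a secreted inhibitor of elastase and cathepsin G, was called higher in Gr-1hi cells (673 ± 7.50 against 54.7 ± 4.06 CPM, log2 fold change 3.62 ± 0.12, adjusted p = 1.15e-07), in the direction of *Serpinb1a*. *Cst7* encodes cystatin F, an inhibitor of cathepsin C, and it was called lower (1.20 ± 0.471 against 23.8 ± 0.180 CPM, -4.29 ± 0.35, adjusted p = 7.47e-06), in the direction of *Ctsc*. In SP 0 of the 8 were called between subsets, and 2 were higher and 3 lower at an adjusted p below 0.01. These counts are near the shares of all genes, 27.8% higher and 31.9% lower. *Serpina3g* was called higher in SP than in BM Gr-1hi cells (71.9 ± 0.911 against 7.10 ± 2.33 CPM, 3.34 ± 0.67, adjusted p = 0.0137), a call lost without libraries 5 and 7 (adjusted p = 0.141).

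Folding enzymes of the endoplasmic reticulum and the heme pathway serve the synthesis of myeloperoxidase. Of 13 such genes, 9 were lower and 3 higher in BM Gr-1hi cells at an adjusted p below 0.01, and 8 and 3 in SP, with medians of -1.67 and -0.99. Of all genes tested, 35.4% were lower and 29.8% higher at that adjusted p in BM, and 31.9% and 27.8% in SP. Only 2 were called, both in BM and both of heme synthesis. *Cpox* was at 0.615 ± 0.182 CPM in Gr-1hi and 19.7 ± 1.32 CPM in Gr-1lo cells (-5.01 ± 0.27, adjusted p = 6.06e-07), and *Alad*, named after its values were seen because it is under 10 CPM, had -3.43 ± 0.51 (adjusted p = 2.79e-04). Both were called higher in SP than in BM Gr-1hi cells, *Cpox* by 2.03 ± 0.30 (adjusted p = 0.00196) and *Alad* by 2.10 ± 0.53 (adjusted p = 0.0179). Without libraries 5 and 7 the call of *Alad* was lost (log2 fold change 1.79). The erythroid genes summed to 218 and 734 CPM in SP Gr-1hi and 35.9 and 44.1 CPM in BM Gr-1hi libraries. The part of erythroid RNA in these 2 genes was not tested. *Calr*, which encodes the chaperone calreticulin, was at 529 and 111 CPM in BM Gr-1lo and Gr-1hi cells (-2.25 ± 0.11, adjusted p = 4.56e-07).

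Of 12 transcription factor genes of the promyelocyte and its alternatives, 2 were called lower in SP than in BM Gr-1lo cells, the comparison in which *Ctsg* was the called member. Of all genes tested, 0.215% were called lower there. *Myb*, a factor of proliferating progenitors, was at 31.5 ± 6.22 CPM in SP and 66.0 ± 0.750 CPM in BM (-1.07 ± 0.23, adjusted p = 0.0384), and *Myc* at 7.89 ± 1.29 and 17.8 ± 0.427 CPM (-1.18 ± 0.16, adjusted p = 0.00404). *Myb* was called lower in SP Gr-1hi cells as well (14.5 ± 5.29 against 31.8 ± 4.72 CPM, -1.13 ± 0.24, adjusted p = 0.00998). In those cells 4 factors were called higher: *Myc* (2.37 ± 0.21, adjusted p = 2.31e-04), *Irf8* (2.63 ± 0.32, adjusted p = 0.00137), *Klf4* (1.73 ± 0.31, adjusted p = 0.00495) and *Cebpb* (1.08 ± 0.26, adjusted p = 0.0155). In that comparison 14.0% of all genes tested were called higher and 1.48% lower. Without libraries 5 and 7 the calls of *Myb* (-0.79), *Irf8* (adjusted p = 0.0657), *Klf4* (0.0599) and *Cebpb* (0.103) in Gr-1hi cells were lost, and those in Gr-1lo cells were not. *Irf8* and *Klf4*, factors of the monocyte lineage, were lower in Gr-1hi than in Gr-1lo cells of BM, by -5.16 ± 0.35 (adjusted p = 5.85e-06) and -6.28 ± 0.32 (adjusted p = 7.66e-07), as was *Myc* (-3.83 ± 0.20, adjusted p = 5.78e-07). In SP only *Klf4* was called (-3.90 ± 0.28, adjusted p = 6.72e-06). The B cell genes summed to 494 and 335 CPM in SP Gr-1hi and 18.5 and 15.3 CPM in BM Gr-1hi libraries. For the dendritic cell genes the sums were 26.1 and 20.8 CPM against 2.92 and 3.88 CPM. The part of these cells in the factor values was not tested.

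Granule genes of the later stages ran opposite to the 6 members called. Of 10 secondary granule genes, 7 were called higher in BM Gr-1hi than in BM Gr-1lo cells and 3 in SP (5 without libraries 5 and 7), with median log2 fold changes of 4.61 and 2.63. *Ltf*, the lactoferrin gene, rose from 330 ± 49.4 to 21303 ± 1892 CPM in BM (6.01 ± 0.30, adjusted p = 5.06e-07) and from 1343 ± 40.9 to 13269 ± 5187 CPM in SP (3.30 ± 0.26, adjusted p = 9.43e-06). In SP Gr-1lo cells, where *Ctsg* was called lower, *Ltf* (2.02 ± 0.25, adjusted p = 0.00270), *Ngp* (1.55 ± 0.25, adjusted p = 0.00996) and *Lcn2* (1.34 ± 0.19, adjusted p = 0.00556) were called higher than in BM, with or without libraries 5 and 7. The 7 neutrophil genes moved with them, at a sum of 6477 and 5358 CPM in SP Gr-1lo and 2905 and 3115 CPM in BM Gr-1lo libraries, and 3 of these genes were higher at an adjusted p of at most 0.05; their part in these values was not tested. In SP Gr-1hi cells, *Mmp8* (-1.26 ± 0.25, adjusted p = 0.00740) and *Olfm4* (-1.21 ± 0.23, adjusted p = 0.00626) were called lower, and 7 of the 10 genes were lower at an adjusted p of at most 0.05, against 13.9% of all genes. Without libraries 5 and 7 *Mmp8* (-0.90) and *Olfm4* (-0.90) were under 2-fold.

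Of 8 genes of mature neutrophils, 7 were called higher in Gr-1hi cells of each tissue, with medians of 6.54 in BM and 5.66 in SP. The gelatinase gene *Mmp9* was at 11580 ± 669 CPM in BM Gr-1hi and 39.0 ± 20.2 CPM in BM Gr-1lo cells (8.21 ± 0.42, adjusted p = 1.04e-06). *Retnlg* was the 1 gene of this list called between tissues, lower in SP Gr-1hi cells (-1.30 ± 0.36, adjusted p = 0.0309), and not called without libraries 5 and 7 (adjusted p = 0.183).

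All 10 proliferation genes were lower in Gr-1hi than in Gr-1lo cells at an adjusted p below 0.01 in both tissues, like the 6 members but by smaller folds. Of all genes tested, 35.4% were lower at that adjusted p in BM and 31.9% in SP, whatever the fold. The medians were -2.76 in BM and -2.66 in SP, and 4 genes in BM and 3 in SP passed 8-fold. *Mcm2*, a subunit of the replicative helicase, was at 5.00 ± 0.461 and 87.4 ± 9.65 CPM in BM Gr-1hi and Gr-1lo cells (-4.13 ± 0.20, adjusted p = 4.32e-07), and *Tyms*, the thymidylate synthase gene, at 2.99 ± 0.0104 and 36.4 ± 0.662 CPM in SP (-3.61 ± 0.15, adjusted p = 5.35e-07). Between SP and BM 0 of the 10 were called in either subset by edgeR.

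**Figure D4:**
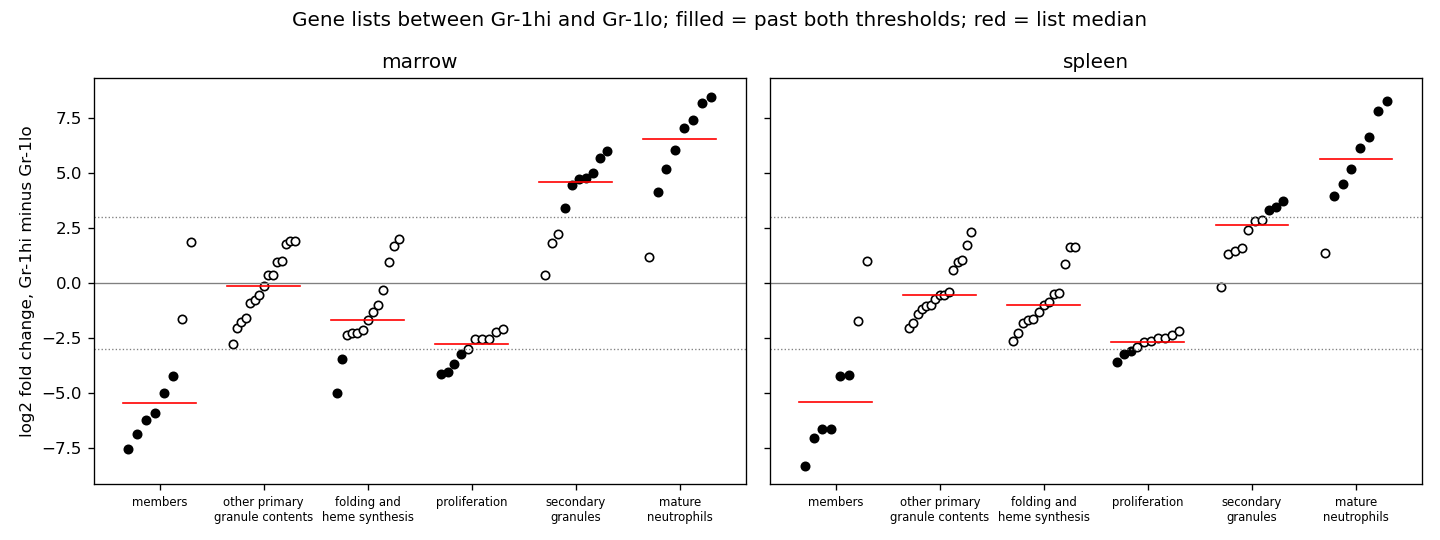
Log2 fold change, Gr-1hi minus Gr-1lo, of each tested gene of 6 lists in BM (left) and SP (right); filled points pass an adjusted p below 0.01 and a fold above 8, and red lines are list medians. The members and the proliferation genes lie mostly below 0, other primary granule contents spread around it, and secondary granule and mature neutrophil genes lie mostly above it.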

How the data were processed

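RNA-seq libraries of 4 groups, 2 each, were made with a stranded mRNA kit. According to the labels and the methods, the authors checked reads with FastQC, aligned them to GRCm38 with STAR and counted them per gene with featureCounts and GENCODE M24. The deposited table holds these whole-number counts of 54188 genes, not normalized. Sample groups came from the titles.

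Counts were scaled by TMM and tested in edgeR 4.0.16 (R 4.3.3) with its quasi-likelihood test, filterByExpr and 1 term per group over 8 libraries, which leaves 4 residual degrees of freedom; 17650 genes were tested. The count test replaced the study's test on quantile-normalized TPM, which was run as an alternative. P-values were adjusted by Benjamini-Hochberg over all genes tested. Genes were called at 0.05 for the adjusted p and 2 for the fold between tissues and for the interaction, and below 0.01 and above 8 between subsets. SE is the log2 fold change divided by the square root of F. CPM use TMM-scaled library sizes; TPM use GENCODE M21 exon lengths, which 241 genes lack. Depth, 33453580 to 68316154 counts, sets the floor of 3 counts; replicates differed by more than counting noise.

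The members and gene lists were chosen with earlier results of these data known. Named were all members, up to 3 called genes per list and direction whose higher group had 10 CPM or more, the 5 most similar genes, the 3 nearest protein-coding genes on each side of *Elane* and *Ctsg*, label checks and the top markers. The 4 monocyte markers given by library, *Srgn*, *Lyz2*, *Calr*, *Alad* and *Cebpb* were named after their values were seen. Motif letters were chosen from general knowledge. The procedure was tested on simulated data. Alternatives were RLE and upper-quartile scaling, DESeq2 1.42.0, no filter, a fit of the 4 libraries compared, edgeR's exact test on quantile-normalized TPM, leaving out each library, and leaving out libraries 5 and 7 together.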

Additional observations from a re-analysis of the deposited data

Results flagged for a closer look

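No member passed the test of the interaction, so only genes of the accompanying lists are given here, for which the interaction passed an adjusted p of at most 0.05 and 2-fold in edgeR's quasi-likelihood test. The interaction log2 fold change, the Gr-1hi minus Gr-1lo difference in SP minus that in BM, was positive for *Myc* (3.55), *Irf8* (3.02), *Cpox* (2.39), *Klf4* (2.37), *Cst7* (2.02), *Gaa* (1.33) and *Mcm2* (1.23). It was negative for the secondary granule genes *Ltf* (-2.71), *Ngp* (-2.32) and *Lcn2* (-2.17) and for *Cebpe* (-1.38), a factor that drives secondary granule genes. Without libraries 5 and 7 the interaction was not called for *Irf8*, *Klf4* and *Cebpe*. *Cebpe* passed in 6 of 13 alternatives and *Cst7* in 8 of 13.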

How the results depend on the processing

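The 6 members called between subsets passed in BM and SP under all 15 alternatives, and no member was called otherwise there. The counts between tissues were less stable. A fit that leaves 1 library in a group takes its spread from other groups, so a higher count there does not make a call firmer. Among Gr-1lo cells 1 member was called; the count was 0 in a fit of the 4 libraries compared, 4 with libraries 5 and 7 both left out and 0 to 3 without single libraries. Among Gr-1hi cells 3 were called; the count was 1 with no filter on low counts, 1 with edgeR's exact test on quantile-normalized TPM and 0 to 4 without single libraries. For the interaction it was 0 to 1 without single libraries. Several values changed sign without passing a test. *Ctsc* in Gr-1lo cells between tissues became -0.027 with RLE scaling, -0.040 with DESeq2 and -0.14 to 0.19 without single libraries, and *Serpinb1a* became -0.010 without libraries 5 and 7. Without these 2 libraries the interaction became 0.27 for *Mpo*, 0.10 for *Elane*, 0.21 for *Ctsg* and 0.36 for *Prss57*, and without single libraries it ranged from -0.12 to 0.58 for *Prtn3*, -0.35 to 0.35 for *Ms4a3* and -0.38 to 0.32 for *Prss57*. The cause of these shifts was not tested. Of the list genes called between tissues, *Myb* passed in 8 of 15 alternatives in Gr-1lo and 12 in Gr-1hi cells, *Retnlg* in 8, *Serpina3g* in 10, and *Cd63* and *Ngp* in 11 each. Over all genes, 716 calls between tissues in Gr-1lo cells became 1077 without a filter, 273 with the exact test and 389 to 785 without single libraries; 2727 in Gr-1hi cells became 688 with the exact test, 1617 without libraries 5 and 7 and 1715 to 3518; 2946 between subsets in BM became 1342 and 1301 in SP became 636 with the exact test; and 1719 for the interaction became 819 without libraries 5 and 7 and 915 to 2488. RLE scaling moved the median log2 fold change of all genes between subsets from -0.17 to -0.03 in BM and from -0.09 to 0.04 in SP. Ranked by Spearman's rho in place of r, 1 of the 5 most similar genes was among the 64 that reached the rho of 1 shared by the highest 5.

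No paired analysis was possible because the labels do not tie libraries to mice. The paper calls the marrow cells autologous to the spleen cells, but the library numbers 5 to 12 do not show which libraries share a mouse. All libraries were therefore treated as unpaired. With 2 libraries per group and 4 residual degrees of freedom, an exact permutation test of a single gene could not go below a two-sided p of 0.333, and the members at 15 to 46 counts in SP Gr-1hi libraries are the least precise.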
